A study of Nothobranchius furzeri with 9 samples.

Results

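Uncoupling proteins are carriers of the inner mitochondrial membrane. UCP1, the founding member, lets protons return to the matrix without making ATP and is known for heat production in the brown fat of mammals, while in the common carp its transcript has been found mainly in liver. UCP2 is found in many mammalian tissues, immune cells included, and has been linked to the control of reactive oxygen species and to the export of small metabolites such as aspartate and malate from the matrix, and UCP3 is the form of mammalian skeletal muscle. The entries of these genes were chosen by gene name from the table of the turquoise killifish *Nothobranchius furzeri*, and they are 2 of its 39396 entries, 1 for UCP1 (entry 557412) and 1 for UCP2 (entry 649160). For UCP3 the table used here holds 0 entries of that name, and the RefSeq gene table of the species (assembly NfurGRZ-RIMD1) lists 1 ucp1, 1 ucp2 and 0 ucp3 genes by symbol. Genes under other identifiers were not searched, so a lack of UCP3 in the species cannot be read from this. UCP2 was selected because its level peaked in adult fish, so its values at the 3 ages are given as a description without a test.

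The study sequenced total RNA of whole skeletal muscle from male fish of the MZM-04/10 strain to compare growing, mature and aged animals. There were 3 groups of 3 libraries, 1 fish each, labelled young (5 weeks), adult (20 weeks) and old (35 weeks), with no treatment or genetic change in any group, and the study's methods give a range of ages for adult and for old fish. The values are normalized counts: the reads of each gene after scaling of every library by its own factor, as whole numbers. Estimated reads on genes were 7.96 M to 14.2 M per library, the smallest number belonging to old replicate 3. Transcripts of titin (TTN) and of a fast myosin light chain (MYLPFA) were the most abundant of the muscle markers, and the summed level of the 27 muscle marker entries, 3 of them at 0 in all libraries, was 3112899 to 3290876 (young), 2564023 to 4523756 (adult) and 3562602 to 4682749 (old). In such bulk samples, fewer cells of a type and less RNA per cell cannot be told apart.

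UCP2 was low in young muscle, very high in adult muscle and intermediate in old muscle. Its normalized counts were 30, 67 and 38 in the young libraries, 3235, 3257 and 3687 in the adult libraries and 404, 387 and 682 in the old libraries. The groups did not overlap at any step of this order: the lowest adult library was 48.3 times the highest young library and 4.74 times the highest old library, and the lowest old library was 5.78 times the highest young one. Behind these values stood about 38, 80 and 39 reads in young, 3515, 4072 and 3761 in adult fish and 397, 306 and 472 in old libraries, so counting error was small beside the differences between ages.

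**Figure D1:**
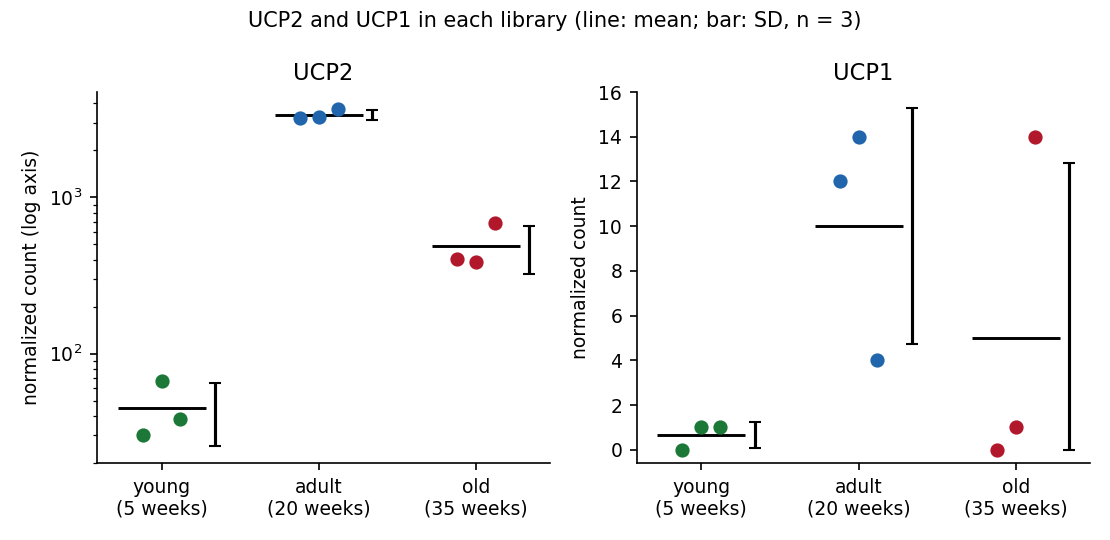
Normalized counts of UCP2 (left, log axis) and UCP1 (right, linear axis) by age, with 1 point per library and the mean with SD of 3 libraries beside the points, the lower bar of UCP1 ending at 0 where the SD exceeds the mean. UCP2 libraries fall into 3 separate levels by age, whereas for UCP1 old replicate 3 sits at 14, level with adult replicate 2, and the other old libraries sit at 0 and 1.

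The mean of UCP2 was 45 ± 19.5 in young, 3393 ± 255 in adult fish and 491 ± 166 in old muscle (SD, n = 3 each). Adult muscle thus held 75.4 times the young mean, and the old mean, at 14.5% of the adult mean, was still 10.9 times the young mean. On the scale of log2(value + 1), the fitted differences were 6.28 for adult minus young, 3.45 for old minus young and -2.83 for old minus adult, each with a standard error of 0.28. Among 17454 entries tested (mean over the libraries of 5 or more), the adult rise of UCP2 was number 3 in size of all positive differences. All of these comparisons share libraries, and they are those by which UCP2 was selected. As background for that selection, 50.2% of tested entries had groups without overlap in adult against young, 42% in old against young and 21% in old against adult muscle. Further, 5.78% of tested entries had all adult libraries above all young and all old libraries, and 1.93% had the full order of adult above old above young without overlap.

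The spread of UCP2 among replicate fish differed by age in these libraries. Unequal spread was not tested, and these are the values by which UCP2 was selected, so the spread is given as a description. The coefficient of variation was 7.51% in adult, 33.7% in old and 43.3% in young fish. The SD of log2 values was 0.11 in adult muscle, where 88.4% of 172 entries of like mean had a larger SD. In young and old muscle it was 0.58 and 0.45, and 91.5% of 3289 and 83.2% of 1153 entries of like mean had a smaller one. Young replicate 2 and old replicate 3 were the highest libraries of their groups, and both lay apart from the other libraries of the same age. Expressed per 1 M normalized counts, UCP2 was 2.90 to 6.55 in young, 247 to 346 in adult fish and 26.9 to 59.3 in old libraries, again without overlap. In the RefSeq table the span of ucp2 overlaps that of its neighbour dnajb13, and no entry of the table used here carries the name DNAJB13. The study's methods left out reads that overlapped more than 1 gene. Whether reads of the shared span were lost in that way was not tested.

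UCP1 was scarce at every age, and its differences between ages did not pass the test. Its normalized counts were 0, 1 and 1 in young, 12, 14 and 4 in adult fish and 0, 1 and 14 in old libraries, which correspond to about 0, 1 and 1, then 13, 18 and 4, and then 0, 1 and 10 reads. Every adult library lay above every young library, while the old libraries spanned the range of both. The mean was 0.667 ± 0.577 in young, 10 ± 5.29 in adult fish and 5 ± 7.81 in old muscle (SD, n = 3 each).

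With limma on log2(value + 1) over all tested entries, adult minus young was 2.64 (standard error 0.95, 95% interval 0.57 to 4.72), with an adjusted p of 0.0509 after Benjamini-Hochberg correction, just past the limit of 0.05. In that comparison 22.1% of all tested entries were called, that is, had an adjusted p within this limit and a log2 difference of at least 1 in size, and the share of entries with groups that did not overlap, as those of UCP1, was 50.2%. Old minus young was 0.97 (interval -1.11 to 3.05, adjusted p = 0.478, with 17.7% of entries called) and old minus adult was -1.67 (interval -3.75 to 0.40, adjusted p = 0.342, with 2.09% called). The exact permutation test of the Kruskal-Wallis statistic over all arrangements of the 9 libraries gave p = 0.2, where the smallest p possible is 0.00357.

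The adult difference of UCP1 lay close enough to the limit for 1 library to move it. Without old replicate 1 it was called (2.64, adjusted p = 0.0297). Without adult replicate 1, adult replicate 2 or old replicate 3, the libraries where UCP1 was highest, its mean fell under the minimum for testing. Fits that kept it all the same, through a filter that still counted the omitted library, gave adjusted p values of 0.136, 0.160 and 0.016 in turn, and no call is read from them. Without old replicate 3 the old minus young difference was -0.17. The mean of UCP1 over 9 libraries, 5.22, barely exceeded the minimum of 5 for testing, and 5 of the 9 libraries were at or under 3 normalized counts.

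The libraries high in UCP1 were also high in transcripts typical of liver. Adult replicates 1 and 2 and old replicate 3 held 12, 14 and 14 normalized counts of UCP1. FGA, which encodes a fibrinogen chain made by hepatocytes, stood at 213, 152 and 207 in these libraries, at 35 in adult replicate 3, at 30 and 3 in the other old libraries and at 72, 12 and 6 in young libraries. APOA1, the main apolipoprotein of high-density lipoprotein, was at 374, 210 and 321 in the same libraries and at 52, 30 and 16 in the other adult and old ones, but in the young libraries it was at 356, 69 and 74.

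FETUB, a secreted liver protein of the fetuin family, had 521, 93 and 94 in young, 465, 188 and 71 in adult fish and 36, 3 and 500 in old libraries. In young replicate 1, where UCP1 was at 0, APOA1 and FETUB were thus near their levels in adult replicate 1 (356 beside 374 and 521 beside 465), while FGA was lower (72 beside 213). The summed level of the 11 liver marker entries, none of them at 0 in all libraries, was 262 to 1257 in young, 243 to 1390 in adult fish and 60 to 1455 in old muscle. With limma, 0 of the 8 tested liver entries were called in each of the 3 comparisons, and 0 had an unadjusted p under 0.05. Over the 9 libraries, the Pearson correlation of log2 values with UCP1 was 0.25 to 0.72 for the 8 tested liver entries. For the 13 tested leukocyte marker entries it was 0.03 to 0.74, so such likeness was not particular to liver entries. The part of liver or leukocyte transcripts in the UCP1 values was not tested.

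**Figure D2:**
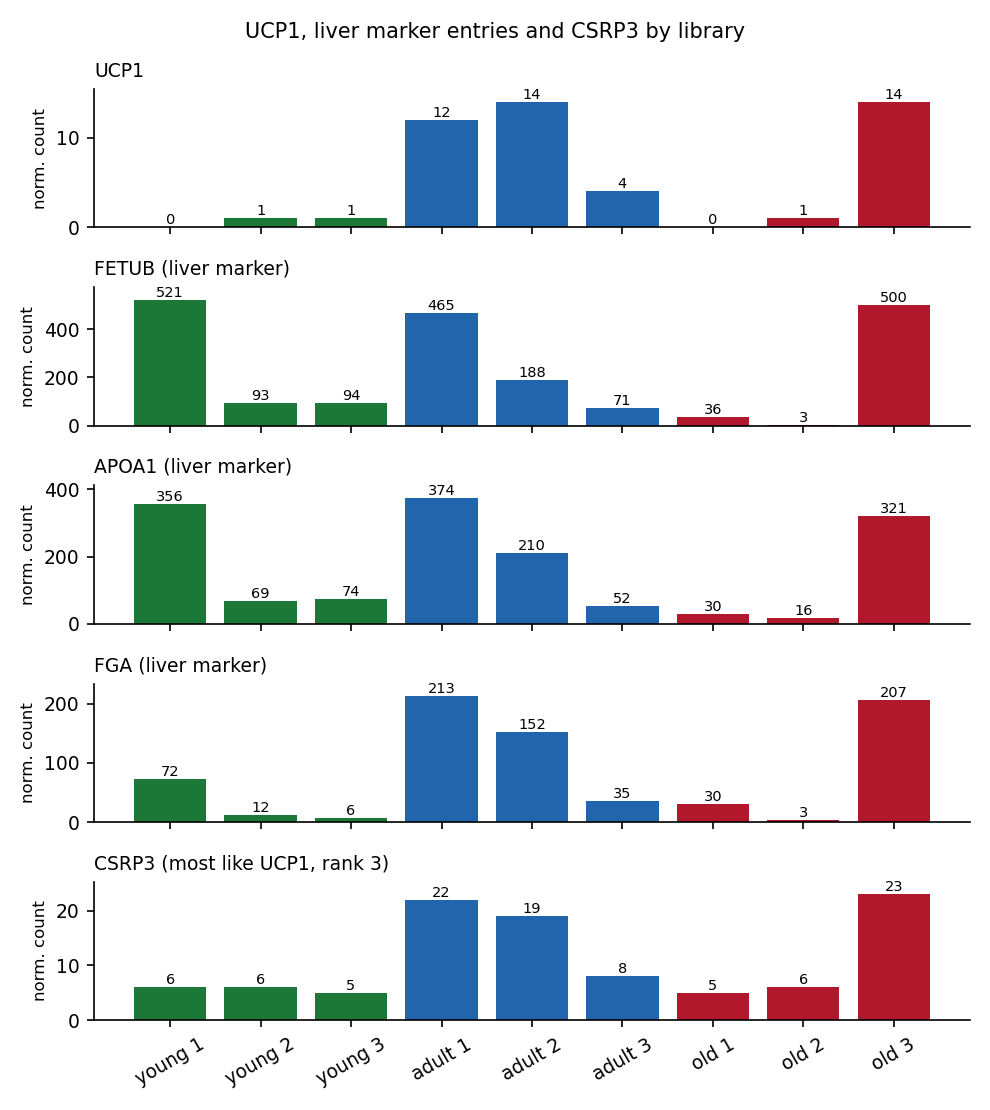
Normalized counts of UCP1, of liver markers and of CSRP3 in each of the 9 libraries, 1 bar per library coloured by age, on linear axes that start at 0. The bars of adult replicates 1 and 2 and old replicate 3 are high in UCP1 and in FGA, while young replicate 1 is high in APOA1 and FETUB with UCP1 at 0.

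Likeness to UCP1 over the 9 libraries was ranked by Pearson correlation of log2 values, among entries with a gene symbol and not an automatic identifier. The entries most like it were SCINLB (r = 0.97), PLA2G4F (0.97), CSRP3 (0.95), AIG1 (0.95) and ARHGAP4B (0.95). They are given as a description, since the 9 points share ages and libraries. CSRP3, a LIM protein of striated muscle, had 6, 6 and 5 normalized counts in young, 22, 19 and 8 in adult fish and 5, 6 and 23 in old libraries. PLA2G4F, a cytosolic phospholipase, had 33, 49 and 40, then 91, 82 and 74, and then 30, 51 and 100. Both were highest among old fish in replicate 3, as UCP1 was, which their choice by likeness to UCP1 over these libraries favours. After scaling to equal library totals the correlation of SCINLB, a scinderin-like actin-severing protein, was 0.88.

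The entries most like UCP2 were found in the same way. SIK1, a salt-inducible kinase, had an r of 0.99 with UCP2, CSRNP1B, a nuclear protein rich in cysteine and serine, 0.98, GDPD1, a glycerophosphodiester phosphodiesterase, 0.98, FOXO1A, a forkhead factor of the fasting response, 0.98, and ZNF800A, a zinc finger protein, 0.98. An r above 0.95 with UCP2 was reached by 67 of the 17453 other tested entries, and an r above 0.95 with UCP1 by 3. These counts are not weighed against each other. UCP1 had at most 18 reads in a library, and UCP2 was selected for its adult peak. SIK1 had 186, 198 and 134 normalized counts in young, 2191, 1816 and 1919 in adult fish and 476, 607 and 806 in old muscle. CSRNP1B had 195, 146 and 162, then 3709, 3323 and 2902, and then 760, 766 and 995. In both, the order was adult above old above young with no overlap, as in UCP2, and old replicate 3 was the highest old library. Over all tested entries 1.93% had this order. These entries were picked for their likeness to UCP2 over the same libraries, so the shared order is a description of that choice.

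The size of the change differed among them. Adult minus young was 6.28 on the log2 scale for UCP2, 4.30 for CSRNP1B, 3.52 for SIK1, 3.11 for FOXO1A, 2.14 for GDPD1 and 1.46 for ZNF800A. Old minus adult was -2.83, -1.98, -1.68, -1.39, -0.77 and -0.54 in the same sequence of genes. Likeness by correlation thus ranked the shape and not the extent of the change. With the libraries scaled to equal totals the r of these 5 genes with UCP2 was 0.96 to 1.00.

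**Figure D3:**
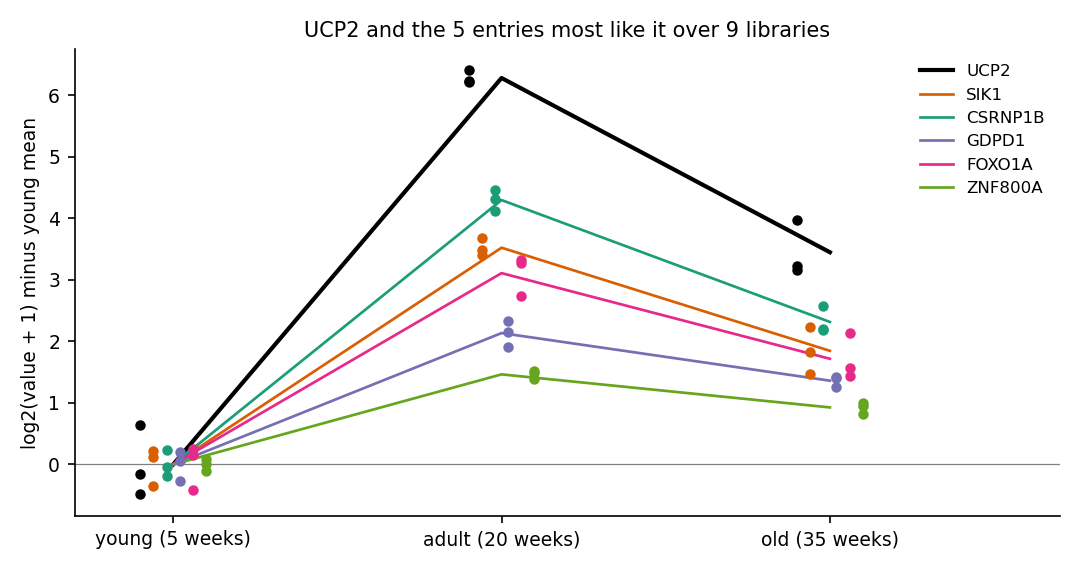
Difference of log2(value + 1) from the young mean for UCP2 and the 5 entries with a gene symbol most like it, by age, in 9 libraries. All 6 rise in adult and lie between young and adult in old muscle, and UCP2 has the widest range, 6.28 in adult and 3.45 in old.

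SLC25A30 and SLC25A10 were the only listed relatives of the uncoupling proteins that were called. The size of their changes is not weighed against that of UCP2, which was selected for its adult peak. Of 13 entries of other mitochondrial carriers related to UCP and of the ADP/ATP carriers, 11 were tested, and SLC25A27 and SLC25A6 had no entry by name. In adult against young muscle 1 was called higher and 1 lower (18.2% of the tested ones), where 10.7% of all tested entries were higher and 11.4% lower, and the list median was -0.16 with that of all entries at 0.00 when rounded. In old against young 0 were called by limma (4 had an unadjusted p under 0.05), where 7.91% of all entries were higher and 9.84% lower, with a list median of 0.04 and -0.03 for all entries. The share of all tested entries with an unadjusted p under 0.05 was not counted. Such counts, here and for the other lists, thus stand without a background share. In old against adult 1 was higher and 1 lower (18.2%), where 0.825% of all entries were higher and 1.26% lower, with a list median of 0.25 and -0.01 for all entries.

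SLC25A30, also known as KMCP1, a mitochondrial carrier close to the uncoupling proteins, also peaked in adult fish. Its normalized counts were 126, 135 and 139 in young, 387, 442 and 544 in adult fish and 172, 178 and 185 in old libraries, so that all adult libraries lay above the rest. It rose in adult against young muscle by 1.76 on the log2 scale (standard error 0.16, adjusted p = 5.35e-05) and fell in old against adult by 1.34 (adjusted p = 0.00295), while old minus young was 0.42 (adjusted p = 0.0763). Its r with UCP2 was 0.93.

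SLC25A10, the dicarboxylate carrier, went the opposite way. It had 32, 45 and 33 normalized counts in young, 12, 7 and 7 in adult fish and 26, 28 and 23 in old libraries, the adult libraries lying below all others. It fell by 1.99 in adult against young (standard error 0.30, adjusted p = 0.000664). It rose by 1.50 in old against adult (adjusted p = 0.0267), a call that was lost in 8 of 18 alternative settings, among them equal library totals and the omission of adult replicate 2, adult replicate 3, old replicate 1, old replicate 2 or young replicate 3. Old minus young was -0.49 (adjusted p = 0.249).

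The other carriers were not called in any comparison. SLC25A11, the oxoglutarate carrier, had 654, 724 and 647 normalized counts in young, 841, 1468 and 1131 in adult fish and 1419, 1289 and 1037 in old libraries, with log2 differences of 0.73 (adjusted p = 0.0167) and 0.88 (adjusted p = 0.00884) from young. SLC25A4, the ADP/ATP carrier of muscle, differed by -0.16 and 0.09 from young (adjusted p = 0.574 and 0.768). Of the SLC25A5 entries, also ADP/ATP carriers, entry 860413 had 2200, 2604 and 2199 in young and 1292, 1417 and 1278 in old libraries, a log2 difference of -0.81 (adjusted p = 0.00502), and entry 262623 was uncalled in each comparison. Both entries of SLC25A14, known as UCP5 in mammals, and those of SLC25A21, SLC25A1B and the tested SLC25A1A were not called, and SLC25A1 and the other SLC25A1A entry were at 0 or 1 in every library.

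**Figure D4:**
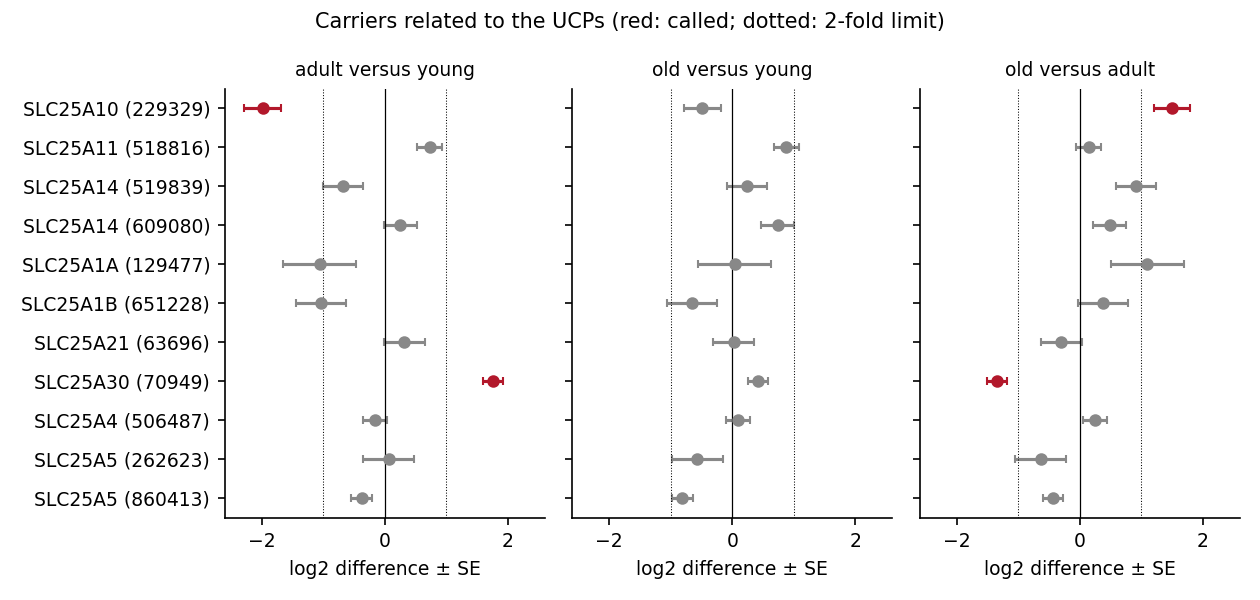
Log2 differences with standard errors of the 11 tested carrier entries in each of the 3 comparisons, called entries in red and the others in grey, with dotted lines at the fold limit of 1 in either direction. SLC25A30 lies to the right in adult versus young (1.76) and to the left in old versus adult (-1.34), and SLC25A10 lies on the opposite sides (-1.99 and 1.50).

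Factors that control mitochondrial and fasting genes, several of which are known regulators of UCP genes in mammals, changed in part. Of 36 entries of PPAR, PGC-1 and hormone receptor regulators, 30 were tested. In adult against young muscle 10 rose and 3 fell (43.3%, median 0.57), in old against young 5 rose and 0 fell (16.7%, median 0.52), and in old against adult 1 rose and 2 fell (10%, median -0.19). Over all tested entries the called shares were 22.1%, 17.7% and 2.09%. FOXO1A had 45, 48 and 30 normalized counts in young, 399, 410 and 273 in adult fish and 121, 111 and 181 in old libraries, 3.11 higher in adult than young (standard error 0.26, adjusted p = 3.25e-05) and 1.72 higher in old than young (adjusted p = 0.000994). It fell by 1.39 from adult to old (adjusted p = 0.0207), a call lost without adult replicate 2 and when these ages were fitted alone.

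PPARGC1A, which encodes the coactivator PGC-1alpha, a driver of mitochondrial biogenesis, also peaked in adult fish. Its normalized counts were 174, 308 and 403 in young, 1087, 1067 and 1710 in adult fish and 466, 528 and 529 in old libraries. It rose by 2.17 in adult against young (standard error 0.28, adjusted p = 0.000252) and fell by 1.31 in old against adult (adjusted p = 0.0331), the latter lost on omission of young replicate 2, adult replicate 2 or 3, or any old replicate. FOXO3 rose by 1.87 in adult and 1.39 in old against young muscle (adjusted p = 0.000153 and 0.00124), from 684 to 1160 in young to 2924 to 3961 in adult and 2087 to 2933 in old libraries. NR3C1, the glucocorticoid receptor (entry 625240, 1 of 4 of that name), rose by 1.32 and 1.23 (adjusted p = 0.00021 and 0.000564), the old call being lost at equal library totals.

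The entries that fell include copies of the same families. In adult minus young muscle, entries 270277 and 587813 of FOXO3A differed by -2.02 (adjusted p = 0.00466) and -1.71 (adjusted p = 0.00533), against the direction of FOXO3. By the study's methods, reads that overlapped several genes or mapped to several places were dropped and not split among copies. What this did to the level of each copy cannot be seen from the table. ESRRGA, an estrogen-related receptor of oxidative muscle, fell by 2.23 in adult (adjusted p = 0.00477), from 10, 12 and 12 normalized counts to 2, 1 and 2. Its rise of 2.07 in old against adult (adjusted p = 0.0457) was lost in 14 of 18 settings, among them equal library totals and the omission of any library except old replicate 3. Entries 529066 and 339332, named ESRRG, did not fall in adult minus young and were not called (0.14 and 0.73, adjusted p = 0.774 and 0.142). Entry 529066 had 58, 38 and 44 in young and 47, 56 and 50 in adult libraries.

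Genes of fatty acid uptake and oxidation, the fuel whose use goes along with uncoupling proteins in mammals, were called about as often as entries at large in adult against young muscle. Of 26 tested entries, 3 rose and 3 fell there (23.1%, beside 22.1% of all entries, median -0.43, beside 0.00 for all entries when rounded). In old against young 1 fell (3.85%, beside 17.7% of all entries, median -0.39, beside -0.03 for all entries), and in old against adult 1 fell (3.85%, beside 2.09%, median 0.01). By limma, 14 of the 26 had an unadjusted p under 0.05 in adult against young, and 14 in old against young. The share of all tested entries under that limit was not counted, so these counts are a description only. Both entries of LPL, lipoprotein lipase, rose in adults by 1.15 and 1.56 (adjusted p = 0.000576 and 0.00171), and entry 957277 of ANGPTL4, an inhibitor of that lipase, by 1.35 (adjusted p = 0.0417). The other ANGPTL4 entry, 678276, went the opposite way, from 123, 125 and 155 in young to 68, 70 and 99 in adult libraries (-0.77, adjusted p = 0.0113), under the fold limit. Of the mitochondrial steps, HADHAB, a subunit of the trifunctional protein, fell by 1.08 (adjusted p = 0.0163) and SLC25A20, the carnitine-acylcarnitine carrier, fell by 1.08 (adjusted p = 0.0385). ACSL6, an acyl-CoA synthetase (entry 498731), fell by 1.09 (adjusted p = 0.0479). The calls of ANGPTL4 entry 957277, HADHAB, SLC25A20 and ACSL6 were lost in 9, 3, 7 and 10 of 19 settings. All were lost on omission of young replicate 2, young replicate 3 or adult replicate 2, ANGPTL4 also without adult replicate 3, SLC25A20 without any 1 young or adult library, and ACSL6 without any 1 young or adult library or old replicate 3. The fall of LPL entry 704965 in old against adult, by 1.20 (adjusted p = 0.0468), was lost in 12 of 19 settings (equal library totals, or without any 1 library other than young replicate 2 and adult replicate 1), and that of ACSL6 entry 355336 in old against young, by 1.96 (adjusted p = 0.0262), without young replicate 2, young replicate 3 or old replicate 3.

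Few tested entries of the list for mitochondrial redox defence were called. The list also holds general redox genes, SOD1, CAT, NFE2L2 and KEAP1 among them, and SOD2, GPX4 and PRDX5 had no entry by name. Of 12 tested entries, 1 fell in adult and 1 in old against young (8.33% each, beside 22.1% and 17.7% of all entries, medians 0.03 and 0.07), and 0 were called by limma in old against adult, where 4 had an unadjusted p under 0.05 (median 0.04). NNT, the nicotinamide nucleotide transhydrogenase that draws on the proton gradient to make NADPH, fell by 1.55 in adult (standard error 0.26, adjusted p = 0.00111), from 338, 344 and 320 in young to 151, 81 and 119 in adult libraries, and stood at 127, 235 and 159 in old ones. TXNRD2, the mitochondrial thioredoxin reductase, fell by 1.04 in old against young (adjusted p = 0.0122), a call lost on omission of old replicate 1 or 3 or of young replicate 3.

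Of 21 entries of the thermogenic programme and of calcium cycling, 12 were tested. In adult against young muscle 3 rose and 1 fell (33.3%, beside 22.1% of all entries, median 0.97), in old against young 3 rose and 0 fell (25%, beside 17.7%, median 0.61), and in old against adult 1 rose (8.33%, beside 2.09%, median 0.41). ADRB2A, a beta-adrenergic receptor, rose by 1.50 in adult (adjusted p = 0.00288), from 22, 31 and 20 to 102, 59 and 56, and by 1.15 in old muscle (adjusted p = 0.015), the latter lost without young replicate 3 and at equal library totals. PRDM16, a factor of brown fat in mice, was highest in old fish. Its entry 204713 had 108, 69 and 141 normalized counts in young, 520, 142 and 184 in adult fish and 1252, 883 and 637 in old libraries, and rose by 3.12 in old against young (standard error 0.43, adjusted p = 0.000732), so that its order of ages was not that of UCP2. Its other calls, 1.22 in adult against young (adjusted p = 0.0489) and 1.89 in old against adult (adjusted p = 0.0434), were lost in 10 and 11 of 19 settings, the former without any 1 young library, adult replicate 1 or 3 or old replicate 2, and the latter without any 1 library other than adult replicate 1. Of the calcium pumps of the sarcoplasmic reticulum, ATP2A1 entry 729165 rose by 1.11 in adult (adjusted p = 0.0102), a call lost without adult replicate 3 and at equal library totals, and ATP2A2 entry 859223 fell by 1.39 (adjusted p = 0.000188). The other tested pump entries, ATP2A1 309213, ATP2A2 530326 and ATP2A2A 42614 and 42730, were not called in any comparison.

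Genes of glutamine and aspartate metabolism are of interest beside UCP2 because the mammalian protein exports aspartate and related metabolites. Of 17 tested entries, 1 rose and 4 fell in adult against young muscle (29.4%, beside 22.1% of all entries, median -0.07), 1 rose in old against young (5.88%, beside 17.7%, median -0.45) and 1 fell in old against adult (5.88%, beside 2.09%, median 0.16). GLS2, a glutaminase (entry 220820), peaked in adults with 489, 659 and 626 normalized counts, beside 147, 148 and 197 in young and 160, 196 and 149 in old libraries. It rose by 1.85 (standard error 0.19, adjusted p = 8.49e-05) and fell again by 1.80 in old against adult (adjusted p = 0.00137), while the other GLS2 entry, 706372, was not called (-0.24 in adult minus young, adjusted p = 0.63). SLC25A22, a mitochondrial glutamate carrier (entry 699884), fell by 1.79 in adult against young (adjusted p = 0.00876), and SLC1A5, a glutamine transporter, fell by 1.13 (adjusted p = 0.0244, lost without young replicate 1 or 3 or adult replicate 2 or 3). ME1, the cytosolic malic enzyme, rose by 1.17 in old against young (adjusted p = 0.00258), lost without old replicate 1 and at equal library totals.

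**Figure D5:**
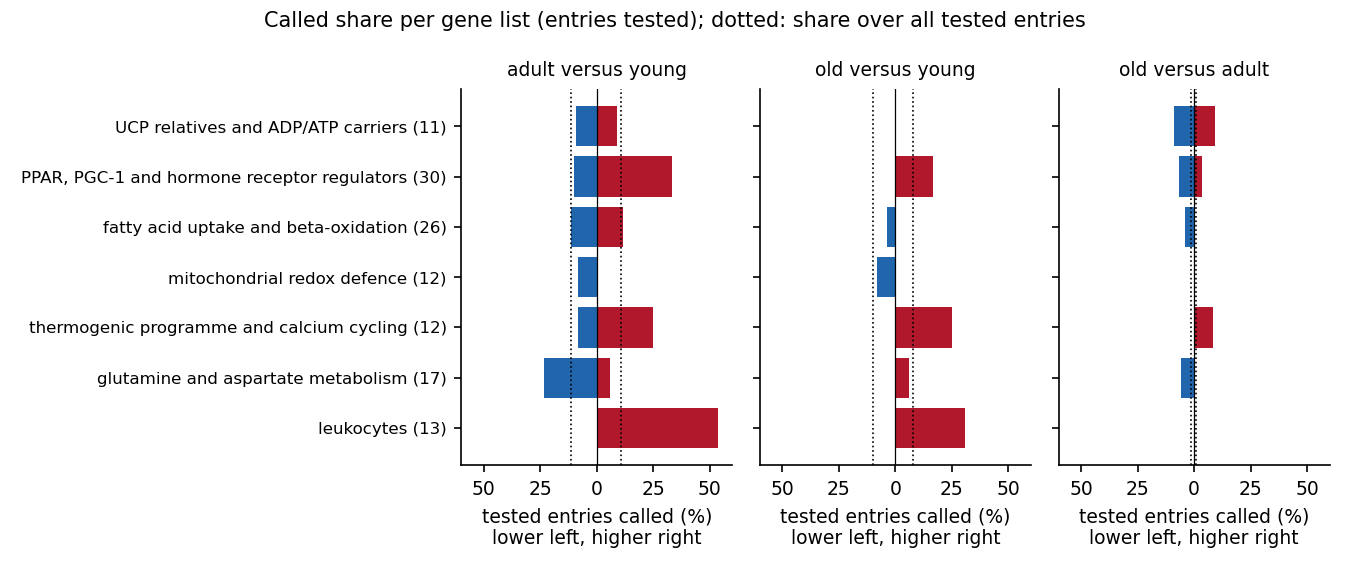
Percent of tested entries called lower (left) and higher (right) in each of the 6 gene lists and the leukocyte markers for the 3 comparisons, with dotted lines at the percent over all tested entries. In adult versus young muscle the regulator list has 10 of 30 entries higher, and in old versus adult muscle no list plotted has more than 2 entries called in 1 direction.

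Leukocyte markers rose in adult fish along with UCP2. Of 13 tested entries, 7 rose and 0 fell in adult against young (53.8%, beside 22.1% of all entries, median 1.34), 4 rose in old against young (30.8%, beside 17.7%, median 0.74), and 0 were called by limma in old against adult, where 7 had an unadjusted p under 0.05 (median -0.89). The summed level of the 14 leukocyte entries, none at 0 in all libraries, was 343 to 510 in young, 872 to 1773 in adult fish and 626 to 795 in old libraries, and the groups did not overlap. Of single tested entries, 50.2% did not overlap in adult against young, and 1.93% had the full order of adult above old above young. NCF1 and CYBB, subunits of the phagocyte NADPH oxidase, rose by 2.80 and 2.88 in adult muscle (adjusted p = 0.000395 and 0.000443). CYBB had 5, 3 and 2 normalized counts in young, 30, 36 and 24 in adult fish and 17, 9 and 9 in old libraries. MPX, the myeloperoxidase of neutrophils, rose by 2.21 (adjusted p = 0.000512), from 66, 69 and 55 to 398, 254 and 255. The part of leukocyte RNA in the UCP2 values was not tested.

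The other marker lists had smaller shares of entries called against young fish. Over all tested entries, 22.1% were called in adult and 17.7% in old against young. The share was 25% at both ages for adipocyte entries and 4.76% at both for muscle entries. For red cell entries it was 0% in adult and 20% in old fish. The summed level of 9 adipocyte entries, 1 of them at 0 in all libraries, was 733 to 798 in young, 816 to 943 in adult fish and 831 to 861 in old libraries, with 1 of 4 tested entries, PNPLA2, a triglyceride lipase also used by muscle, called higher in adult and in old against young (1.57 and 1.31, adjusted p = 0.004 and 0.0132, the old call lost without young replicate 2). LIPEB, not called, had 341, 315 and 304 in young and 499, 454 and 415 in adult libraries. LIPEA, also not called, went down from 339, 393 and 309 to 271, 247 and 281. The 5 red blood cell entries summed to 825 to 1037 in young, 681 to 789 in adult fish and 690 to 860 in old libraries. Adipocyte sums in adult and old fish thus lay above all young ones, and red cell sums in adult fish below them. Of single tested entries, 50.2% did not overlap in adult against young and 42% in old against young. In adult against young 0 red cell entries were called by limma, and 4 had an unadjusted p under 0.05. ALAS2, the first enzyme of haem synthesis in red cells, fell by 1.26 in old against young (adjusted p = 0.0403, lost without any 1 young replicate or without old replicate 1 or 3). Of the 21 tested muscle entries, MYH1 entry 966928, a myosin heavy chain, differed from young fish by -4.37 in adult and -4.75 in old fish (adjusted p = 4.88e-05 and 6.37e-05), and the other tested MYH1 entry, 160453, was not called.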

How the data were processed

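The authors trimmed paired reads with Trimmomatic 0.33, aligned them with STAR 2.4.2a and counted them per gene with featureCounts 1.4.5-p1, per the submitters' processing notes. The deposited values are a normalized signal, made by the authors with DESeq: gene counts divided by 1 size factor per library and rounded. Because these are not raw counts, no count test was run. Size factors estimated from the spacing of the values were 0.692 to 1.25, which gives the approximate reads quoted. Values were used as log2(value + 1), and the 17454 of 39396 entries whose mean over 9 libraries reached 5 were fitted with limma 3.58.1 (R 4.3.3, trend, 1 mean per age), adjusted by Benjamini-Hochberg in each comparison, and called where the adjusted p was 0.05 or less and the log2 difference 1 or more in size. For UCP1 an exact permutation test was added (scipy 1.17.1). The fit was tested on simulated data before use.

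Entries of 1 name were kept apart, since 5150 names have more than 1 entry. The 6 gene lists (130 entries, 108 tested) and 5 marker lists were matched by name, and 35 of 152 listed symbols had no entry. Named genes were drawn from all UCP entries and carrier relatives, and from the 5 named entries most correlated with each UCP entry. They were also drawn, per other list, comparison and direction, from the 3 called entries with the smallest p. The last source was the 3 most abundant entries of each marker list. Of these, FABP11A (adipocytes) and SLC4A1A and SLC4A1B (red blood cells) are not described. PPARGC1A was named by its old versus adult call. A called entry that this rule would name is not reported here. The members and lists were chosen with earlier results of these data known. Replicates are separate fish. Alternatives changed the scaling, added constant, filter, model and libraries. Chromatin data were not analysed here, no sequence was used, and coordinates are not given because the RefSeq table is of another assembly than the genome of the files.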

Additional observations from a re-analysis of the deposited data

How the results depend on the processing

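UCP2 kept its direction and its size beyond the fold limit in all alternatives run: leaving out 1 library gave 6.04 to 6.61 for adult minus young, 3.19 to 3.77 for old minus young and -3.10 to -2.69 for old minus adult. Equal library totals put the median of all entries at -0.12, -0.30 and -0.17 in these comparisons. The rise of UCP1 in adult against young muscle became a call with an added constant of 5 (1.34, adjusted p = 0.0493), with these ages fitted alone (2.64, adjusted p = 0.00866) and with robust moderation (2.64, adjusted p = 0.0488). It was 2.31 to 3.14 on leaving out 1 library, where only the fit without old replicate 1 made a call. UCP1 missed the filter without adult replicate 1, adult replicate 2 or old replicate 3 and at a minimum mean of 50. With the filter set over 9 libraries, an alternative chosen after seeing the data that still counts the omitted library, the fit without old replicate 3 gave 2.64 (adjusted p = 0.016) and old minus young reversed to -0.17, which is no evidence of a call since UCP1 would otherwise not be tested there. The exact test of UCP1 gave p = 0.204 at equal totals and 0.261 with medians of ratios.

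Of the 108 tested entries of the 6 gene lists together, 31 were called in adult versus young (23 to 31 on leaving out 1 library). In old against young fish 11 were called, and in old against adult fish 8. Over all tested entries the called shares were 22.1%, 17.7% and 2.09%. The count of 11 was 17 at equal totals and 9 to 19 on leaving out 1 library, 19 being that without old replicate 2. The count of 8 was 5 at equal totals, 5 without a filter, 3 with these ages alone and 2 to 8 on leaving out 1 library, 2 being that without adult replicate 2. With a replicate block it was 5, and the block gave UCP1 in adult minus young 2.64 with an adjusted p of 0.0663. Replicate numbers gave no sign of pairing: the deviations of same-numbered libraries correlated at -0.08 to 0.11, and those of differently numbered ones at -0.10 to 0.12. With 3 libraries per age this cannot exclude a pairing, and the labels do not say what the numbers mean. Over all entries the calls, 3855, 3098 and 364, were 2963 to 4043, 2200 to 3278 and 90 to 534 on leaving out 1 library and 1818 to 4239, 1400 to 3524 and 75 to 395 otherwise. The causes were not tested. Depth limits UCP1, with at most 18 reads in a library.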
